A study of Mus musculus with 6 samples.

Results

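The kappa V genes are the germline segments that encode the variable domain of the immunoglobulin kappa light chain. They were taken as every gene whose symbol starts with Igkv, which gave 118 of the 30733 gene symbols in the tables. Their levels were compared between cells with a high and cells with a low surface level of major histocompatibility complex class II (MHCII) that were sorted from mouse bone marrow and labelled as hematopoietic stem cells. There were 3 MHCII_hi libraries and 3 MHCII_lo libraries, all from wild-type (WT) mice aged 12 months. Sort gates and animal numbers are not stated in these sources, and no label says that replicates came from separate animals, so each p-value reflects library-to-library spread that could be purely technical. Values are FPKM (fragments per kilobase of transcript, relative to all mapped fragments), a unit inferred from the values, and depth is unknown.

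In a developing B lymphocyte, recombination joins 1 kappa V gene to 1 J gene, and splicing then joins the product to the constant gene Igkc. A B cell or plasma cell that makes a kappa light chain therefore carries 1 chosen V gene as a rule, and the mix of V transcripts in a population reads out which V genes its cells carry, weighted by how much light chain RNA each cell makes. Plasma cells, the antibody-secreting end stage of this lineage, live in the bone marrow and hold far more light chain RNA than a resting B cell. In bulk RNA, more cells with a V gene and more RNA per cell cannot be told apart.

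The members lay on chromosome 6 of the build GRCm38 (mm10), between positions 67555497 and 70704177 of the GENCODE M21 annotation, a span of 3149 kb that ends before Igkj1 (start 70722562) and Igkc (70726435 to 70726966). All 118 symbols were found in that annotation, 99 as V genes and 19 as V pseudogenes. The first number of a symbol gives the V family, and there were 20 families, the largest of which was family 4 with 31 members. On the genome 48 members had the same strand as Igkc and 70 the opposite strand.

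The labels name stem cells, yet the stem cell genes Procr, Slamf1, Mecom, Fgd5 and Hoxb5 were under 1 FPKM in all 6 libraries, while Kit, Ly6a and Cd34 were between 9.15 and 15.8 FPKM. Of 13 plasma cell marker genes none was at 0, and their summed level was 399 to 408 FPKM in MHCII_hi libraries and 323 to 328 FPKM in MHCII_lo libraries. Jchain made up most of this sum, at 229 ± 5.78 FPKM in MHCII_hi and 181 ± 2.05 FPKM in MHCII_lo. In the limma fit (adjusted p under 0.05), 20.4% of all tested genes rose in MHCII_hi and 40.6% fell. Among the 12 tested plasma cell genes, 5 rose (Xbp1, Jchain, Mzb1, Derl3 and Creld2) and Tnfrsf13b fell. Sdc1, Prdm1, Irf4, Slamf7, Fkbp11 and Edem2 were not called, with Sdc1 at 1.60 FPKM in MHCII_hi and 1.57 FPKM in MHCII_lo. Of 19 B cell marker genes, 12 were under 1 FPKM in all libraries, among them Pax5, Ms4a1 and Rag1. Of the 4 that were tested, Cd79a rose (4.76 ± 0.552 FPKM in MHCII_hi and 2.41 ± 0.336 FPKM in MHCII_lo), and Cd79b, Cd72 and Dntt were not called, with Cd79b at 8.97 to 11.02 FPKM. The summed level of the B cell list was 24.9 to 26.6 FPKM in MHCII_hi libraries and 21.9 to 25.1 FPKM in MHCII_lo libraries. All 16 neutrophil marker genes rose, and they held 15.7 to 15.8% of summed FPKM in MHCII_hi libraries and 2.81 to 2.84% in MHCII_lo libraries. Of 10 T and NK cell genes, 7 were tested and 2 fell. The part of these other cell types in the kappa V results was not tested.

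The sequences that set the members apart at their 3′ ends are shown for the 4 with the largest increases, the 4 with the largest decreases and the most abundant one. Each line is the last 60 bases of the coding V exon, read 5′ to 3′ on the strand of the gene, from the GENCODE M21 transcripts. Capitals run from the codon of the conserved cysteine to the end of the exon. The bases after that codon are the germline start of the third complementarity-determining region (CDR3), the loop where V and J are joined. The first 4 rose in MHCII_hi (Igkv1-133 at chr6:67725602-67725661 on the plus strand, Igkv7-33 at chr6:70058632-70058691 on the minus strand, Igkv4-63 at chr6:69377944-69378003 on the minus strand and Igkv14-126 at chr6:67896583-67896642 on the plus strand). The next 4 fell (Igkv1-122 at chr6:68017429-68017488 plus, Igkv4-62 at chr6:69399812-69399871 minus, Igkv14-100 at chr6:68519418-68519477 plus and Igkv4-69 at chr6:69283794-69283853 minus). The last is Igkv10-96, at chr6:68631963-68632022 on the minus strand.
Igkv1-133: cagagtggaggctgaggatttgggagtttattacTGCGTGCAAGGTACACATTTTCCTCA
Igkv7-33: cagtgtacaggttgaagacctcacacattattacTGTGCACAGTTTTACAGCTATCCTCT
Igkv4-63: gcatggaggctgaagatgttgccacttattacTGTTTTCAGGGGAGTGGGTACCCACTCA
Igkv14-126: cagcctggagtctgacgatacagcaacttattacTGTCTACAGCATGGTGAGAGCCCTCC
Igkv1-122: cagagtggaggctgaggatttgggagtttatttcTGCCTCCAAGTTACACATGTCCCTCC
Igkv4-62: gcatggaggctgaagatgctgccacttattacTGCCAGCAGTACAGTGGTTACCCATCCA
Igkv14-100: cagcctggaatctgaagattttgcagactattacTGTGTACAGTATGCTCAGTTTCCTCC
Igkv4-69: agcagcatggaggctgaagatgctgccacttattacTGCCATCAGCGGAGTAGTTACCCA
Igkv10-96: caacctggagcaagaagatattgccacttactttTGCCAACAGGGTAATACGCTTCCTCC
In Igkv1-133 and Igkv1-122, members of 1 family that moved in opposite directions, the 34 lower-case bases differ at 1 place and the 26 capitals at 6 places.

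The kappa V genes were abundant in both groups. Their summed level was 5486, 5558 and 5557 FPKM in MHCII_hi libraries, against 4977, 5160 and 4996 FPKM in MHCII_lo libraries (5534 ± 41.2 and 5045 ± 101, SD, n = 3 each). The groups did not overlap, and the ratio of their means was 1.10. As a share of the summed FPKM of all genes this was 1.60 ± 0.0174% in MHCII_hi and 1.54 ± 0.0321% in MHCII_lo. Igkc itself, the segment that every kappa transcript shares, had 3673, 3713 and 3699 FPKM in MHCII_hi libraries, against 3704, 3725 and 3726 FPKM in MHCII_lo libraries. The Igkc values overlapped and the limma fit made no call (log2 fold change −0.0092, adjusted p = 0.426, Benjamini-Hochberg over all tested genes). This depended on the scaling of the libraries, since Igkc was called higher after median-ratio scaling (log2 fold change 0.11, limma adjusted p = 9.14e-05), and lower after quantile normalization (−0.58, limma adjusted p = 0.0156) and after scaling to the kappa V sum (−0.14, limma adjusted p = 0.000414). In the alternatives that keep the deposited scale the limma adjusted p was 0.37 to 0.857. The sum of the V genes per unit of Igkc was 1.498 ± 0.00434 in MHCII_hi and 1.36 ± 0.0250 in MHCII_lo. The summed lambda V genes (Iglv), the V genes of the other light chain, stood at 451 ± 7.60 FPKM in MHCII_hi and 285 ± 4.87 FPKM in MHCII_lo, so that kappa V over lambda V was 12.3 ± 0.277 in MHCII_hi and 17.7 ± 0.521 in MHCII_lo. No p is given for these sums, which are scores over chosen genes.

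Of the 118 members, 89 averaged 1 FPKM or more across the libraries and were tested, all of them annotated as V genes. The other 29 were the 19 pseudogenes and 10 V genes. Among them the highest mean was 0.965 FPKM, and 5 were listed at 0 in all 6 libraries, including Igkv18-36, the only member of its family. The pseudogenes reached a mean of 0.81 FPKM at most and made up 0.0441 ± 0.0188% of the kappa V sum in MHCII_hi and 0.0446 ± 0.0342% in MHCII_lo. The pseudogene shares overlapped between the groups and were small in both. Nearly all of the measured V transcript was thus assigned to genes annotated as able to encode a light chain.

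In the limma fit on log2(FPKM + 1) with Benjamini-Hochberg adjustment over 12037 genes, 38 kappa V genes rose in MHCII_hi and 32 fell, with 19 not called. Among all tested genes 20.4% rose and 40.6% fell, while among the tested kappa V genes 42.7% rose and 36.0% fell. The median log2 fold change was 0.11 over the tested kappa V genes and −0.12 over all tested genes. The values of the groups did not overlap for 70 of the 89 members (78.7%), in 37 with MHCII_hi above and in 33 with MHCII_lo above, and this held for 67.6% of all tested genes. Called changes of at least 2-fold on the log2(FPKM + 1) scale were seen in 10 members that rose and 11 that fell, where 3.7% and 1.35% of all tested genes had such changes. Of the members that rose, Igkv7-33, Igkv8-18, Igkv3-9 and Igkv4-54 averaged under 1 FPKM in MHCII_lo and so passed the filter on low values only through MHCII_hi, which no member did through MHCII_lo. Among the 85 members with at least 1 FPKM in both group means, 34 rose and 32 fell, 6 and 11 of them by at least 2-fold. Called members that rose gained 1208 FPKM in sum over their group means, and the summed change of those that fell was −724 FPKM. The kappa V genes thus moved in both directions in numbers not far apart, and the share that rose was above that of all tested genes.

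**Figure D1:**
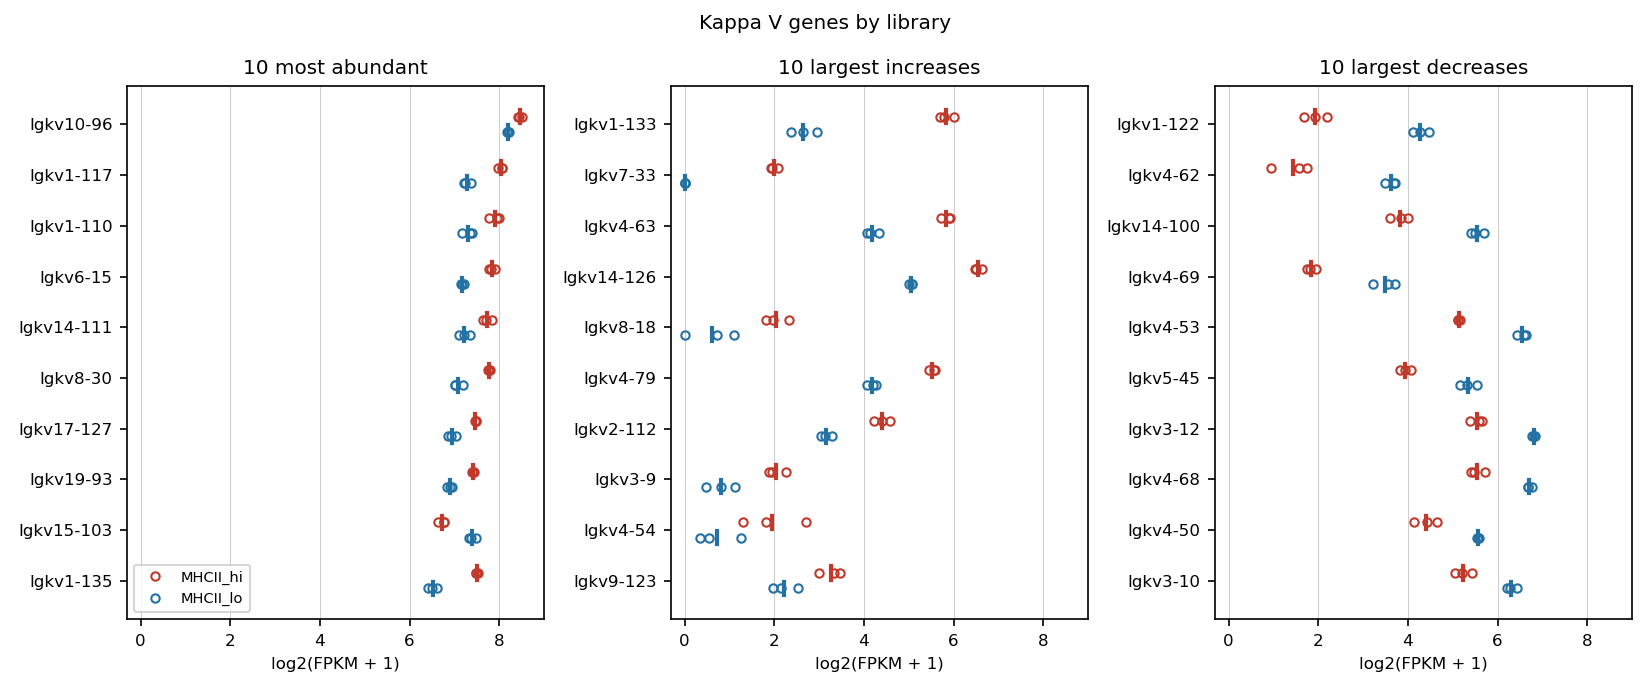
Levels of named kappa V genes as log2(FPKM + 1), with 1 circle per library and a bar at the mean of each group of 3 libraries, MHCII_hi in red above MHCII_lo in blue. The panels hold the 10 most abundant members, of which Igkv15-103 alone is lower in MHCII_hi, and the 10 called members with the largest change in each direction. In the panel of abundant members the red and blue circles of a gene do not overlap. In the panels of largest changes lack of overlap was a condition for choosing the genes.

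Igkv10-96 was the most abundant kappa V gene in each library of both groups. It had 342, 349 and 363 FPKM in MHCII_hi libraries, against 292, 299 and 287 FPKM in MHCII_lo libraries. Every MHCII_hi value lay above every MHCII_lo value, and the log2 fold change was 0.26 ± 0.03 (SE; limma adjusted p = 0.000174). Its share of the kappa V sum was 6.35% in MHCII_hi and 5.80% in MHCII_lo.

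Below it, 8 of the other 9 most abundant members rose. Igkv1-117 had 268, 265 and 249 FPKM in MHCII_hi libraries, against 164, 147 and 150 FPKM in MHCII_lo libraries, with a log2 fold change of 0.76 ± 0.05 (SE; limma adjusted p = 1.62e-05). Igkv6-15 had 219, 239 and 224 FPKM in MHCII_hi libraries, against 147, 141 and 142 FPKM in MHCII_lo libraries, with a log2 fold change of 0.66 ± 0.04 (limma adjusted p = 7.28e-06). For both genes the lowest MHCII_hi value lay above the highest MHCII_lo value. Igkv1-135 had 179, 182 and 178 FPKM in MHCII_hi libraries, against 90.2, 84.4 and 97.2 FPKM in MHCII_lo libraries, a log2 fold change of 0.98 ± 0.05 (limma adjusted p = 4.6e-06). It was the 7th most abundant member in MHCII_hi and the 23rd in MHCII_lo. The other members of this set that rose were Igkv1-110, Igkv14-111, Igkv8-30, Igkv17-127 and Igkv19-93, with log2 fold changes between 0.51 and 0.69.

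Igkv15-103, the only gene of family 15, went the other way. It had 109, 99.2 and 108 FPKM in MHCII_hi libraries, against 159, 177 and 164 FPKM in MHCII_lo libraries. All MHCII_hi values were below all MHCII_lo values, and the log2 fold change was −0.66 ± 0.05 (SE; limma adjusted p = 4.65e-05). It stood 16th in MHCII_hi and 2nd in MHCII_lo.

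The largest log2 fold change with a pseudocount of 1 was that of Igkv1-133 (with a pseudocount of 0.1, Igkv7-33 stood above it). Igkv1-133 had 63.1, 54.0 and 51.2 FPKM in MHCII_hi libraries, against 5.22, 6.71 and 4.18 FPKM in MHCII_lo libraries. The lowest MHCII_hi value was thus well above the highest MHCII_lo value. The ratio of the group means was 10.4 and the log2 fold change 3.18 ± 0.15 (SE; limma adjusted p = 3.34e-06). The gene stood 35th of the kappa V genes in MHCII_hi and 76th in MHCII_lo.

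Igkv7-33, the only gene of family 7, had 2.85, 2.83 and 3.21 FPKM in MHCII_hi libraries and was listed at 0 in all 3 MHCII_lo libraries. It was called higher (limma adjusted p = 2.18e-06), and no fold is given against a group at 0. Since it passed the filter on low values only through MHCII_hi, a call on it could only be higher. No other member was at 0 throughout MHCII_lo and above 0 in all 3 MHCII_hi libraries, and no member had the opposite pattern.

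Igkv14-126 was the most abundant of the 10 members with the largest increases. It had 88.2, 89.0 and 98.6 FPKM in MHCII_hi libraries, against 32.7, 32.9 and 31.2 FPKM in MHCII_lo libraries, and a log2 fold change of 1.48 ± 0.05 (SE; limma adjusted p = 5.89e-07). Igkv4-63 had 58.2, 59.2 and 51.8 FPKM in MHCII_hi libraries, against 19.3, 16.5 and 15.7 FPKM in MHCII_lo libraries, and a log2 fold change of 1.66 ± 0.08 (limma adjusted p = 5.02e-06). Igkv4-79 had 46.2, 47.0 and 42.6 FPKM in MHCII_hi libraries, against 18.4, 15.8 and 17.4 FPKM in MHCII_lo libraries, and a log2 fold change of 1.35 ± 0.06 (limma adjusted p = 3.2e-06). In these 3 genes the groups were far apart, and lack of overlap was a condition for the list of largest increases. Igkv2-112, Igkv9-123, Igkv8-18 and Igkv3-9 also rose, with log2 fold changes of 1.25, 1.05, 1.44 and 1.23, at means of 3.12 to 20.3 FPKM in MHCII_hi. Igkv8-18 and Igkv3-9 passed the filter on low values only through MHCII_hi, as did Igkv4-54. Igkv4-54 was low and scattered, with 5.56, 2.55 and 1.46 FPKM in MHCII_hi libraries, against 0.47, 1.41 and 0.27 FPKM in MHCII_lo libraries. Its call (log2 fold change 1.22 ± 0.39, limma adjusted p = 0.0299) was lost without any 1 of 4 libraries, with adjusted p = 0.0615 without MHCII_hi replicate 1, 0.0592 without MHCII_hi replicate 2, 0.083 without MHCII_lo replicate 1 and 0.0909 without MHCII_lo replicate 3, in a range of 0.013 to 0.0909 over all alternatives.

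The largest decrease with a pseudocount of 1 was that of Igkv1-122, while Igkv4-62 fell by more with a pseudocount of 0.1 or without MHCII_hi replicate 2. Igkv1-122 had 3.55, 2.20 and 2.80 FPKM in MHCII_hi libraries, against 18.3, 16.3 and 21.04 FPKM in MHCII_lo libraries. Each MHCII_lo value was several times any MHCII_hi value, and the log2 fold change was −2.35 ± 0.14 (SE; limma adjusted p = 1.29e-05). Igkv4-62 had 2.36, 1.99 and 0.94 FPKM in MHCII_hi libraries, against 10.3, 12.1 and 12.0 FPKM in MHCII_lo libraries, with a log2 fold change of −2.20 ± 0.20 (limma adjusted p = 9.1e-05). Igkv14-100 had 13.4, 14.9 and 11.2 FPKM in MHCII_hi libraries, against 44.2, 50.9 and 41.7 FPKM in MHCII_lo libraries, with a log2 fold change of −1.72 ± 0.11 (limma adjusted p = 1.86e-05). The groups of these genes did not overlap, which was a condition for the list of largest decreases.

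Among more abundant members that fell, Igkv4-53 had 34.8, 33.9 and 34.0 FPKM in MHCII_hi libraries, against 86.1, 97.8 and 94.7 FPKM in MHCII_lo libraries (log2 fold change −1.41 ± 0.05, limma adjusted p = 7.4e-07). Igkv3-12 had 40.6, 49.3 and 47.1 FPKM in MHCII_hi libraries, against 107, 114 and 111 FPKM in MHCII_lo libraries (log2 fold change −1.27 ± 0.07, limma adjusted p = 8.17e-06). Igkv4-68 had 43.4, 52.0 and 41.2 FPKM in MHCII_hi libraries, against 107, 102 and 102 FPKM in MHCII_lo libraries (log2 fold change −1.18 ± 0.08, limma adjusted p = 2.58e-05). None of the 3 had a value in MHCII_hi within the MHCII_lo range, by the same condition. They stood 16th to 21st in MHCII_lo and 39th to 48th in MHCII_hi. Igkv4-69, Igkv5-45, Igkv4-50 and Igkv3-10 completed the 10 largest decreases, with log2 fold changes of −1.66, −1.40, −1.16 and −1.08.

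Single members did not all separate the groups. Igkv3-4, the most abundant gene of family 3, had 125, 128 and 138 FPKM in MHCII_hi libraries, against 134, 136 and 129 FPKM in MHCII_lo libraries, and was not called (log2 fold change −0.03 ± 0.04, limma adjusted p = 0.535). Igkv2-137, the member farthest from Igkj1, varied widely within both groups, with 32.9, 10.01 and 42.3 FPKM in MHCII_hi libraries, against 8.78, 28.3 and 29.6 FPKM in MHCII_lo libraries. It was not called (limma adjusted p = 0.704), and its groups overlapped. Igkv2-137 was named after its values were seen. The same holds for the one called member with overlapping groups, Igkv13-84 (67.3 ± 3.08 FPKM in MHCII_hi and 59.8 ± 4.71 FPKM in MHCII_lo, limma adjusted p = 0.0426), and for the one member not called with groups apart, Igkv4-61 (24.6 ± 2.43 FPKM in MHCII_hi and 26.9 ± 0.727 FPKM in MHCII_lo, limma adjusted p = 0.156). The call on Igkv13-84 was lost without MHCII_lo replicate 1 or 2 or MHCII_hi replicate 2 or 3, with limma adjusted p between 0.0944 and 0.124, in a range of 0.00537 to 0.609 over all alternatives.

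The direction of change was next set against the level of the members, by their mean over all 6 libraries. Of the 17 members with a mean of 100 FPKM or more, 11 rose and 3 fell, and together they held 54.2 ± 0.550% of the kappa V sum in MHCII_hi and 46.8 ± 0.497% in MHCII_lo. Of the 46 members between 20 and 100 FPKM, 19 rose and 19 fell, and their share was 42.6 ± 0.442% in MHCII_hi and 48.9 ± 0.476% in MHCII_lo. Of the 26 tested members below 20 FPKM, 8 rose and 10 fell, and their share was 3.09 ± 0.155% in MHCII_hi and 4.22 ± 0.0549% in MHCII_lo. These values depended on the mean that set the classes, since a member that is high in 1 group can reach a class through that group. With classes set by the MHCII_lo mean alone, an alternative chosen after the data were seen, 8 of the 17 members at 100 FPKM or more rose and 6 fell, and they held 48.9 ± 0.863% of the sum in MHCII_hi and 47.9 ± 0.529% in MHCII_lo. With classes set by the MHCII_hi mean alone, 13 of 18 rose and 2 fell, with 56.2 ± 0.412% in MHCII_hi and 47.9 ± 0.611% in MHCII_lo.

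**Figure D2:**
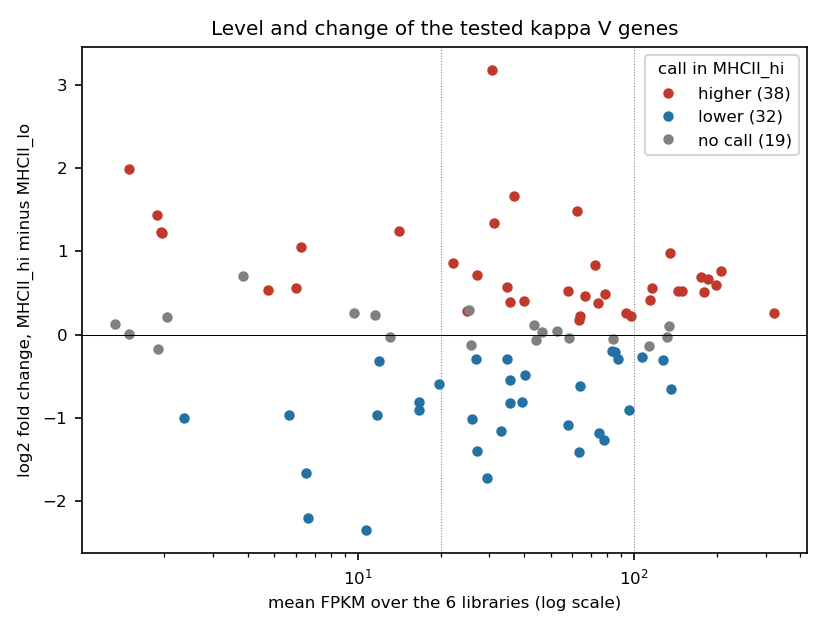
Log2 fold change (MHCII_hi minus MHCII_lo, on log2(FPKM + 1)) of the 89 tested kappa V genes against their mean FPKM over the 6 libraries on a log scale, coloured by call. Dotted lines mark 20 and 100 FPKM. To the right of 100 FPKM 11 members rose and 3 fell, and between the lines 19 rose and 19 fell, with levels taken over both groups.

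The evenness of the repertoire was measured as the Shannon entropy of the members' shares divided by its highest possible value, so that 1 means equal shares for all 118 members. It was 0.837, 0.834 and 0.835 in MHCII_hi libraries, against 0.853, 0.855 and 0.856 in MHCII_lo libraries. All MHCII_hi values were below all MHCII_lo values, with a difference of −0.0192 between means that had SDs of 0.00161 in MHCII_hi and 0.00137 in MHCII_lo. Expressed as an effective number of equally used genes, this was 53.8 ± 0.412 in MHCII_hi and 58.9 ± 0.383 in MHCII_lo. The inverse Simpson index, which weighs abundant genes more, was 40.6 ± 0.511 in MHCII_hi and 47.7 ± 0.460 in MHCII_lo. The 10 most abundant members of each library held 39.3 ± 0.555% of the sum in MHCII_hi and 31.8 ± 0.529% in MHCII_lo. It took 15, 15 and 15 genes to reach 50% of the sum in MHCII_hi libraries, against 18, 18 and 19 genes in MHCII_lo libraries.

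The number of members above 0 went the other way, with 103, 101 and 102 in MHCII_hi libraries, against 96, 97 and 95 in MHCII_lo libraries. MHCII_hi libraries therefore listed more members above 0, while fewer members were needed to reach 50% of the sum. The count above 0 included pseudogenes, which reached a mean of 0.81 FPKM at most. Over the members annotated as V genes alone it did not separate the groups, since the lowest MHCII_hi count equalled the highest MHCII_lo count. What depth contributes to these counts was not tested. Members at 1 FPKM or more numbered 88, 91 and 91 in MHCII_hi libraries, against 84, 86 and 89 in MHCII_lo libraries, and these counts overlapped. Between the groups, 7 genes were shared by the lists of the 10 most abundant, 70% of each list, and 16 by the lists of the 20 most abundant, 80% of each. No p is given for these measures, which are scores over the members.

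**Figure D3:**
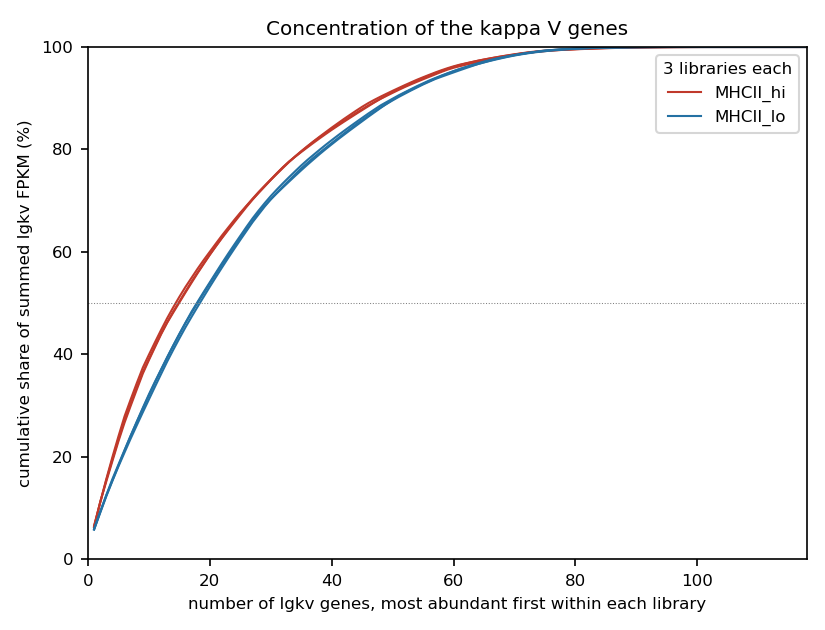
Cumulative share of the summed kappa V FPKM (%) against the number of genes, taken from the most to the least abundant within each library, with 1 line per library, MHCII_hi in red and MHCII_lo in blue. The dotted line marks 50%, which the 3 MHCII_hi libraries reach at 15 genes and the MHCII_lo libraries at 18, 18 and 19 genes.

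Libraries of a group were close to each other in their V gene shares. The share of the repertoire that 2 libraries did not have in common was 3.30 to 3.63% within MHCII_hi and 3.57 to 4.35% within MHCII_lo, against 17.6 to 18.6% for the 9 pairs made of 1 library of each group. The Morisita-Horn index, which is 1 for identical shares, was 0.997 to 0.998 within MHCII_hi, 0.996 to 0.997 within MHCII_lo and 0.930 to 0.938 between groups. Within a group, kappa V genes nevertheless had a larger median spread than the other genes in the same broad range of FPKM. The sets were not matched on level inside that range or on exonic length, which had a median of 363 bases over the tested kappa V genes. What these contribute to the spread was not tested. For genes at 10 to 400 FPKM the median coefficient of variation was 5.64% over 71 kappa V genes and 3.19% over 4475 other genes in MHCII_hi, and 6.93% over 72 kappa V genes and 3.17% over 4567 other genes in MHCII_lo.

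The same description of the heavy chain V genes (Ighv), which are drawn by the same cells for the other antibody chain, gave a smaller difference in evenness. Ighv evenness was 0.827 ± 0.000356 in MHCII_hi and 0.833 ± 0.000524 in MHCII_lo, a difference of −0.00645. Of 97 tested Ighv genes 48 rose and 25 fell, where 20.4% of all tested genes rose and 40.6% fell. The difference between the kappa and heavy chain values was not tested.

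By V family, the shares of the groups did not overlap in 14 of the 20 families, in 7 with MHCII_hi above and in 7 with MHCII_lo above. Shares within a library do not change when the library is rescaled. Family 1 had the largest gain, with 13.8, 14.1 and 13.5% of the kappa V sum in MHCII_hi libraries, against 9.13, 8.84 and 9.36% in MHCII_lo libraries. It was the most abundant family in MHCII_hi, where family 4 came next, while families 4, 6 and 3 stood above it in MHCII_lo. Of its 8 tested members 4 rose (Igkv1-110, Igkv1-117, Igkv1-133 and Igkv1-135) and 2 fell.

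Family 17 had 5.70 ± 0.101% in MHCII_hi and 4.28 ± 0.240% in MHCII_lo, and both of its genes rose. Family 14 had 5.95 ± 0.232% in MHCII_hi and 4.74 ± 0.327% in MHCII_lo, although Igkv14-100 in it was among the largest decreases. Family 19, with Igkv19-93 as its only gene, had 3.08 ± 0.0599% in MHCII_hi and 2.34 ± 0.0900% in MHCII_lo. Families 10 and 13 were higher by less, at 8.90 ± 0.176% and 2.61 ± 0.0568% in MHCII_hi, against 8.40 ± 0.145% and 2.29 ± 0.172% in MHCII_lo. Their most abundant genes Igkv10-96 and Igkv13-85 rose. The remaining one was family 7, with Igkv7-33 alone, which was tested only through its MHCII_hi values.

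Families 3, 5, 4, 15 and 12 lost the most. Family 3 had 8.84 ± 0.179% in MHCII_hi and 11.4 ± 0.173% in MHCII_lo, with 3 members up and 4 down. Family 5 had 4.91 ± 0.126% in MHCII_hi and 6.91 ± 0.268% in MHCII_lo, and 3 of its 5 genes fell while its most abundant, Igkv5-39, rose (log2 fold change 0.22 ± 0.04, limma adjusted p = 0.00199). Family 4 had 13.4 ± 0.262% in MHCII_hi and 15.1 ± 0.140% in MHCII_lo, with 8 members up and 9 down, and its most abundant gene, Igkv4-57, rose. Family 15, which is Igkv15-103, had 1.91 ± 0.107% in MHCII_hi and 3.30 ± 0.116% in MHCII_lo. Family 12 had 4.80 ± 0.147% in MHCII_hi and 6.16 ± 0.0941% in MHCII_lo, and its most abundant gene Igkv12-46 fell (log2 fold change −0.27 ± 0.04, limma adjusted p = 0.000866). Families 9 and 16 were also lower, at 2.08 ± 0.0848% and 1.95 ± 0.0747% in MHCII_hi, against 2.69 ± 0.173% and 2.36 ± 0.189% in MHCII_lo. The most abundant gene of family 9, Igkv9-120, fell, and the single gene of family 16, Igkv16-104, was not called (limma adjusted p = 0.094).

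Families 6, 8 and 2 overlapped, at 12.3 ± 0.184%, 7.47 ± 0.174% and 2.13 ± 0.366% in MHCII_hi and 12.1 ± 0.311%, 7.24 ± 0.143% and 1.56 ± 0.182% in MHCII_lo. Family 11, whose most abundant gene Igkv11-125 was not called (limma adjusted p = 0.139), and families 18 and 20 were below 0.1% in each group. In family 2 the most abundant gene, Igkv2-109, rose while the scattered Igkv2-137 was not called. Without the most abundant member of each family, the difference changed sign in families 6, 8 and 9. Members moved in both directions in 9 of the 18 families that had a tested member, so a family's share summed opposite changes. Over families instead of genes, evenness was 0.860 ± 0.00175 in MHCII_hi and 0.862 ± 0.00172 in MHCII_lo, and its values overlapped. The groups thus lay apart in evenness over genes and overlapped in evenness over families.

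**Figure D4:**
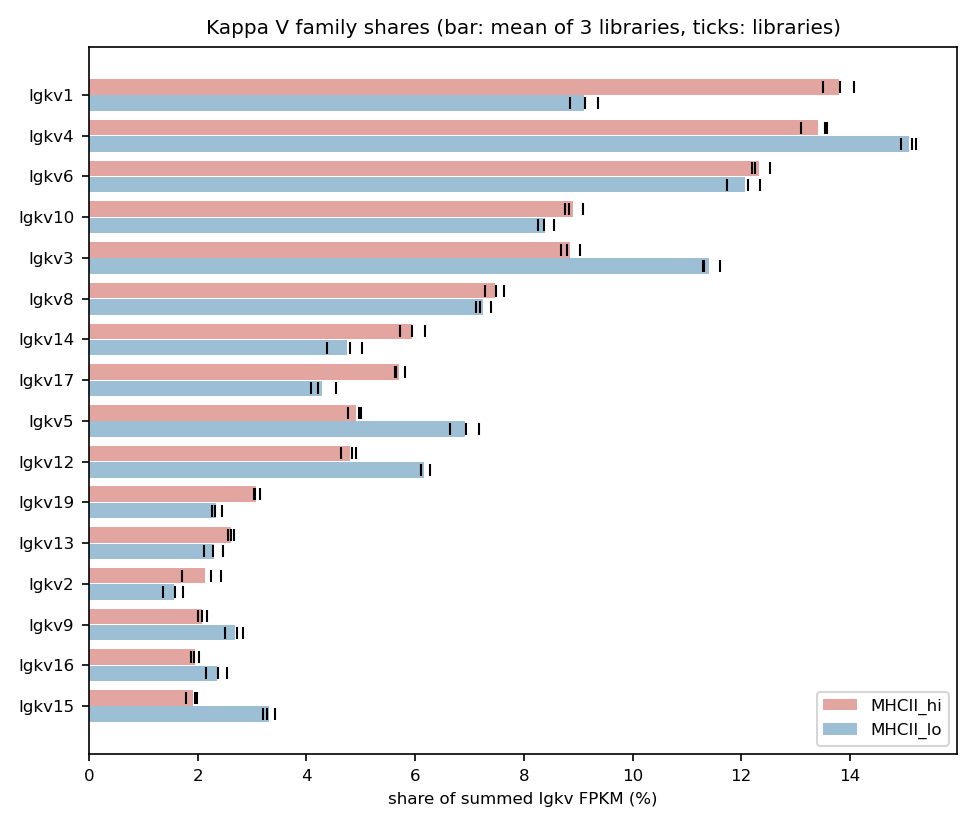
Share of the summed kappa V FPKM (%) held by each V family with at least 1% in a group, as bars for the mean of 3 libraries with ticks for the libraries, MHCII_hi in red above MHCII_lo in blue. Igkv1 is at 13.8% in MHCII_hi and 9.11% in MHCII_lo, and Igkv3, Igkv4, Igkv5, Igkv12 and Igkv15 are lower in MHCII_hi.

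Position along the locus was described next, since V genes on the strand of Igkc are joined by deletion and those on the opposite strand by inversion. Members on the strand of Igkc held 46.3 ± 0.246% of the kappa V sum in MHCII_hi and 42.6 ± 0.0471% in MHCII_lo, and of 36 tested 18 rose and 8 fell. Members on the opposite strand held 53.7 ± 0.246% in MHCII_hi and 57.4 ± 0.0471% in MHCII_lo, and of 53 tested 20 rose and 24 fell. By distance, members over 2 Mb from Igkj1 held 43.1 ± 0.107% in MHCII_hi and 36.6 ± 0.461% in MHCII_lo, with 13 of 27 up and 4 down. Members at 1 to 2 Mb held 19.6 ± 0.327% in MHCII_hi and 20.6 ± 0.295% in MHCII_lo, with 11 of 26 up and 11 down. Members under 1 Mb held 37.4 ± 0.235% in MHCII_hi and 42.8 ± 0.336% in MHCII_lo, with 14 of 36 up and 17 down. Of all tested kappa V genes 42.7% rose and 36.0% fell, and of all tested genes 20.4% rose and 40.6% fell. Against the kappa V shares, the far stretch stood out by few members that fell rather than by many that rose. The share of the kappa V sum in MHCII_hi was higher in the far stretch and lower in the near one, and each stretch held members of both directions. Family 1 lies mostly in the far stretch, so strand, distance and family overlap as descriptions.

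**Figure D5:**
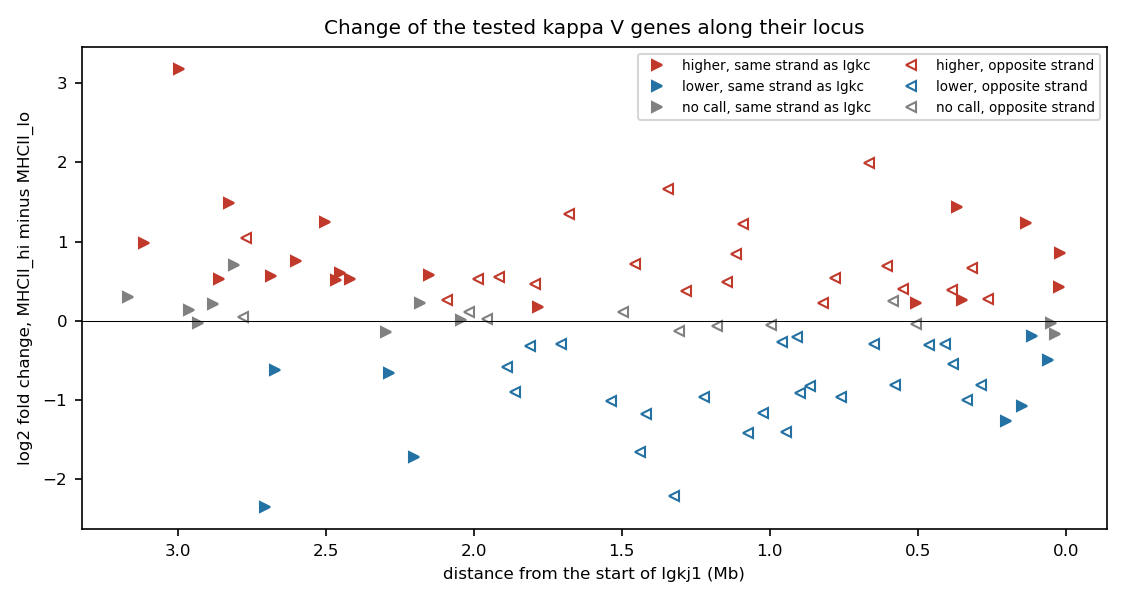
Log2 fold change (MHCII_hi minus MHCII_lo, on log2(FPKM + 1)) of the 89 tested kappa V genes against the distance of the gene from the start of Igkj1 in Mb, with Igkj1 at the right. Filled triangles are genes on the strand of Igkc and open ones on the opposite strand, and red, blue and grey mark higher, lower and no call. Beyond 2 Mb, 13 of 27 members rose and 4 fell, where 42.7% and 36.0% of all tested kappa V genes did.

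In a recombined kappa gene a J gene is joined to the V gene, so the levels of the J genes were also described. How reads were assigned to the J genes is not given in the sources used here. Igkj1 had 633, 626 and 637 FPKM in MHCII_hi libraries, against 591, 583 and 570 FPKM in MHCII_lo libraries, and rose (log2 fold change 0.12 ± 0.02, SE; limma adjusted p = 0.000987). Igkj2 had 673, 670 and 683 FPKM in MHCII_hi libraries, against 726, 724 and 742 FPKM in MHCII_lo libraries, and fell (log2 fold change −0.11 ± 0.02, limma adjusted p = 0.000864). The groups did not overlap for either gene. Both calls depended on the scaling, as Igkj1 was not called after scaling to the kappa V sum (log2 fold change −0.01, limma adjusted p = 0.674, range over alternatives 4.09e-05 to 0.674) and Igkj2 was not called after median-ratio scaling (log2 fold change 0.00383, limma adjusted p = 0.854) or quantile normalization (−0.03, limma adjusted p = 0.203), with a range of 0.000146 to 0.854 over alternatives. Igkj4 and Igkj5 were not called, with limma adjusted p of 0.736 and 0.123. Igkj3, the mouse kappa J gene known as nonfunctional, rose at a low level (7.52 ± 1.03 FPKM in MHCII_hi and 1.68 ± 0.200 FPKM in MHCII_lo, limma adjusted p = 1.3e-05).

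Heavy chain constant genes, which set the antibody class, also differed between the groups. Ighm (IgM) and Igha (IgA) averaged 349 ± 4.21 and 483 ± 5.15 FPKM in MHCII_hi, against 107 ± 2.61 and 202 ± 6.07 FPKM in MHCII_lo. Ighg1 and Ighg2b averaged 160 ± 2.79 and 248 ± 4.64 FPKM in MHCII_hi, against 529 ± 5.13 and 479 ± 2.22 FPKM in MHCII_lo. Ighg2c and Ighg3 averaged 773 ± 13.04 and 23.9 ± 0.666 FPKM in MHCII_hi, against 616 ± 13.1 and 1.88 ± 0.176 FPKM in MHCII_lo. By limma Ighm, Igha, Ighd, Ighg2c and Ighg3 rose and Ighg1 and Ighg2b fell, each with groups apart, so the IgG genes moved in both directions. Whether single kappa V genes go with a class cannot be read from bulk values.

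Many kappa V genes resemble each other, which bears on how reads were assigned between them. Over the 99 members annotated as V genes, the coding V exons had 293 to 322 bases with a median of 303, and the median identity was 88.4% within a family and 66.8% between families. The closest relative of a member was 68.0 to 99.0% identical, with a median of 94.0%. How the authors' quantification shared reads between such genes is not given in the sources used here, so the split between close relatives is uncertain. There were 31 pairs at 95% identity or more. In 18 of them both members were called, 12 times in the same direction and 6 times in opposite directions.

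The closest pair was Igkv5-43 and Igkv5-45, which differ at 3 places. Igkv5-43 averaged 66.3 ± 3.56 FPKM in MHCII_hi and 125 ± 3.46 FPKM in MHCII_lo, and Igkv5-45 averaged 14.5 ± 1.23 FPKM in MHCII_hi and 39.8 ± 5.23 FPKM in MHCII_lo. Both fell, with log2 fold changes of −0.91 ± 0.04 and −1.40 ± 0.10 (SE; limma adjusted p = 3.26e-06 and 2.94e-05). Igkv5-43 and the partners Igkv4-55, Igkv4-59, Igkv4-70, Igkv6-13 and Igkv6-23 below are named for their sequence relation, after their values were seen.

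Igkv1-133 and Igkv1-135, both with large increases, had coding V exons of 313 bases with 11 differences (96.5% identity) and a longest shared run of 95 bases. Bases 15 to 134 of the exon are shown, the first 120-base window with the most differences, with capitals at the 6 differences inside it. Igkv1-133 is at chr6:67725363-67725482 and Igkv1-135 at chr6:67610210-67610329, both on the plus strand of GRCm38.
Igkv1-133: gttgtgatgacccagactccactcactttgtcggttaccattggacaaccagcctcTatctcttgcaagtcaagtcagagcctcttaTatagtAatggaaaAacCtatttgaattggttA
Igkv1-135: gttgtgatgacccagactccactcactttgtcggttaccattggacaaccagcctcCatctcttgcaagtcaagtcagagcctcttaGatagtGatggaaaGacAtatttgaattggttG
Their levels moved by different amounts, with log2 fold changes of 3.18 ± 0.15 for Igkv1-133 and 0.98 ± 0.05 for Igkv1-135.

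Igkv4-55 and Igkv4-62 are the pair of equal length with the largest gap between opposite calls. Their exons of 303 bases had 15 differences (95.1% identity) and a longest shared run of 68 bases. Bases 126 to 245 are shown, again the first 120-base window with the most differences, with capitals at the 9 differences inside it. Igkv4-55 is at chr6:69607333-69607452 and Igkv4-62 at chr6:69399870-69399989, both on the minus strand.
Igkv4-55: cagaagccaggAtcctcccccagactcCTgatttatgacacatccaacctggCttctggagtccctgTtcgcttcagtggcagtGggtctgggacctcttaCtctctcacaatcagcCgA
Igkv4-62: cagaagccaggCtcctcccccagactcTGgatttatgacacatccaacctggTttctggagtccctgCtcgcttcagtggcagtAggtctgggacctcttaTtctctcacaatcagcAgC
Igkv4-55 had 98.0, 88.2 and 92.2 FPKM in MHCII_hi libraries, against 49.1, 59.5 and 46.5 FPKM in MHCII_lo libraries, and rose (log2 fold change 0.84 ± 0.09, limma adjusted p = 0.000224), while Igkv4-62 fell as given above. The other pairs with opposite calls were Igkv4-54 with Igkv4-68, Igkv4-55 with Igkv4-68, Igkv4-59 with Igkv4-68, Igkv4-69 with Igkv4-70 and Igkv6-13 with Igkv6-23. In the last of these Igkv6-13 averaged 27.5 ± 1.20 FPKM in MHCII_hi and 22.4 ± 1.23 FPKM in MHCII_lo, and Igkv6-23 averaged 115 ± 6.47 FPKM in MHCII_hi and 142 ± 5.96 FPKM in MHCII_lo. In 5 of the 6 opposite pairs both genes belonged to family 4, the largest family.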

How the data were processed

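RNA-seq was measured in 6 libraries, grouped as MHCII_hi and MHCII_lo by the labels. For each library the authors deposited a table of gene names and values. The unit was inferred as FPKM, since no header names it and the deposited values have the form that StringTie writes. The submitters' processing notes name fastp, HISAT2, StringTie and GRCm38 (mm10), without versions. Per the labels' protocols, libraries were stranded mRNA libraries; whether quantification used strand is not stated. FPKM are relative, and the genome's many similar V genes can share reads. Depth is unknown, so no counting intervals are given.

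Of 30803 rows, 70 repeats of a symbol were dropped (highest mean kept, 0 of them Igkv). Genes averaging 1 FPKM or more were tested on log2(FPKM + 1) with limma 3.58.1 (intensity trend, group as the only term, R 4.3.3) and Benjamini-Hochberg adjustment over 12037 genes at 0.05. The fit was tested on simulated data. Shares, sums and evenness were computed with Python 3.11.15 (pandas 2.3.3, numpy 2.4.6) and have no test. V exons from GENCODE M21 were aligned with edlib 1.3.9.post1. 42 Igkv genes of that annotation were not analysed here. Named genes were the 10 most abundant, the 10 largest changes in each direction among called genes with groups apart, and the most abundant of each family. Members and lists were chosen with earlier results of these data known. Alternatives were other pseudocounts, filters and scalings, a fit without a trend, a replicate block and leaving out each library.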

Additional observations from a re-analysis of the deposited data

How the results depend on the processing

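Over the alternatives run, the number of kappa V genes that rose was 33 to 42 and the number that fell 26 to 38, and no called gene was called in the opposite direction under any of them. Leaving out 1 library gave 35 to 39 higher and 29 to 31 lower, a sum ratio of 1.09 to 1.11 and an evenness difference of −0.0200 to −0.0184. Over all tested genes the median change was −0.12 (log2) as reported, −0.02 after median-ratio scaling and −0.23 after scaling to the kappa V sum. Median-ratio scaling raised the ratio of kappa V sums to 1.19, which follows from the library factors, and gave 42 higher and 26 lower. Scaling to the kappa V sum gave 34 higher and 38 lower, so which direction held more members depended on the scaling. Without the most abundant member of each family, 9 families had shares with groups apart, against 14. Of the 14, families 7, 15, 16 and 19 have a single member and drop out, families 10 and 13 overlapped, 7 stayed apart in the same direction and family 9 in the opposite one, and family 8 was apart only then. The labels share replicate numbers, but over all genes the deviations of same-numbered libraries correlated at −0.0533, −0.0456 and −0.0435, and over the kappa V genes at −0.23, −0.191 and 0.258. Not every pair was above 0.1, so the numbers were not taken to pair the libraries, and the fit with a replicate block gave 40 higher and 32 lower. For the 48 named kappa V genes, 742 of 763 alternative values kept direction and side of the threshold. Igkv3-4 changed sign to 0.0853 after median-ratio scaling, and Igkv2-137 ranged over both signs when 1 library was left out (−0.2434 to 0.8941, negative without MHCII_lo replicate 1 or MHCII_hi replicate 3), none of them called, and the cause was not tested. Igkv5-39 was not called after scaling to the kappa V sum (log2 fold change 0.09, limma adjusted p = 0.12). Depth is unknown and similar V genes may share reads, which limits the values of low members most.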
